A study of Homo sapiens with 8 samples.

Results

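The comparison of HEK293T cells carrying a KDM5C knockout (labelled sgKDM5C) with wild-type HEK293T cells (WT) rests on 4 RNA-seq libraries, 2 of each, among the 8 libraries of the series. HEK293T is a human embryonic kidney cell line. The other 4 libraries come from KDM6A and KMT2B knockouts of the same line (sgKDM6A and sgKMT2B, 2 each) and serve here to show where sgKDM5C cells differ from cells that were edited at another gene. All lines grew in the same serum-supplemented medium, and the labels give no treatment. The guide sequence, the editing outcome, and whether a line is a single clone or a pool could not be taken from the labels. Nothing in the labels says that the replicates were separate cultures, so the p-values measure the spread between these libraries, which may be technical. The 8 libraries held 15868353 to 27591724 counts, with the lowest total in WT replicate 2.

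KDM5C is an X-linked demethylase that removes methyl groups from lysine 4 of histone H3, a mark of active promoters and enhancers. It is known as a partner of repressors at the promoters of germline and neuronal genes, and mutations in it cause an X-linked intellectual disability. Its relatives KDM5A and KDM5B catalyse the same reaction, and the E2F6 and PCGF6 repressor complex PRC1.6 holds many germline genes silent in somatic cells, with KDM5C found beside it in mouse cells.

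KDM5C itself (ENSG00000126012, GRCh38 chromosome X, 53191321 to 53225422) read 331 and 312 CPM (counts scaled to a fixed library total, with TMM factors) in sgKDM5C cells, against 440 and 471 CPM in WT cells. The groups did not overlap, and the transcript was lower but still abundant in the knockout line: the log2 change was -0.50 (SE 0.08, adjusted p = 0.00109 by edgeR's quasi-likelihood test). The sgKDM6A and sgKMT2B libraries read between 379 and 395 CPM, above both sgKDM5C libraries but below both WT libraries. KDM5C was thus also lower in sgKDM5C than in the other knockouts (-0.27, SE 0.07, adjusted p = 0.0168), by less than against WT. The counts cover the whole gene, so they do not show whether the remaining transcripts encode a working protein. Of 18 tested relatives and partners of KDM5C, 1 rose and 2 fell, with 3 higher without sgKDM5C replicate 2, 5 higher without WT replicate 1, and 1 lower without sgKDM5C replicate 1 or 2. KDM5A read 79.98 and 84.2 CPM in sgKDM5C cells and 69.7 and 86.2 CPM in WT cells, and it did not pass (adjusted p = 0.674). The deacetylase gene HDAC1 rose, with 632 and 562 CPM in sgKDM5C cells against 386 and 417 CPM in WT cells (0.57, SE 0.09, adjusted p = 0.000748). PCGF6 was lower (-0.36, SE 0.12, adjusted p = 0.042) but did not pass without sgKDM5C replicate 1 (-0.42, adjusted p = 0.101), sgKDM5C replicate 2 (-0.31, adjusted p = 0.196) or WT replicate 1 (-0.29, adjusted p = 0.152).

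Of 17527 genes tested, 1949 were higher (11.1%) and 2020 lower (11.5%) in sgKDM5C than in WT cells at an adjusted p under 0.05, and these shares are the background for every count of members that follows. At least 2-fold, 727 were higher (4.15%) and 366 lower (2.09%). Both sgKDM5C libraries lay on 1 side of both WT libraries in 60.7% of tested genes, called or not. The balance shifted with the level of the gene. Among 2255 genes at 100 CPM or more, 173 rose and 545 fell, whereas among 2834 genes at 1 to under 5 CPM, 377 rose and 152 fell. Long non-coding genes followed the second pattern: of 2390 tested, 259 rose and 73 fell, with a median log2 change of 0.29, against 1604 higher and 1899 lower of 13619 protein-coding genes with a median of 0.00. A gene of low count could enter the test through a single group that expressed it, so these counts give no evidence of direction by themselves. At an equal depth of 15868353 counts in every library, 15374 and 15563 genes had at least 10 counts in the sgKDM5C libraries, 14961 to 15072 in the sgKDM6A and sgKMT2B libraries, and 14902 and 15046 in the WT libraries. More genes were therefore above that level in sgKDM5C than in any other library. Leaving out sgKDM5C replicate 1 left 1841 called genes, and leaving out WT replicate 2 left 2633. In all, 1362 of the 3969 calls, 636 higher and 726 lower, were made in the same direction whichever of the 4 libraries was left out. Every called gene named below with a change is among these 1362 unless its paragraph gives an exception.

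**Figure D1:**
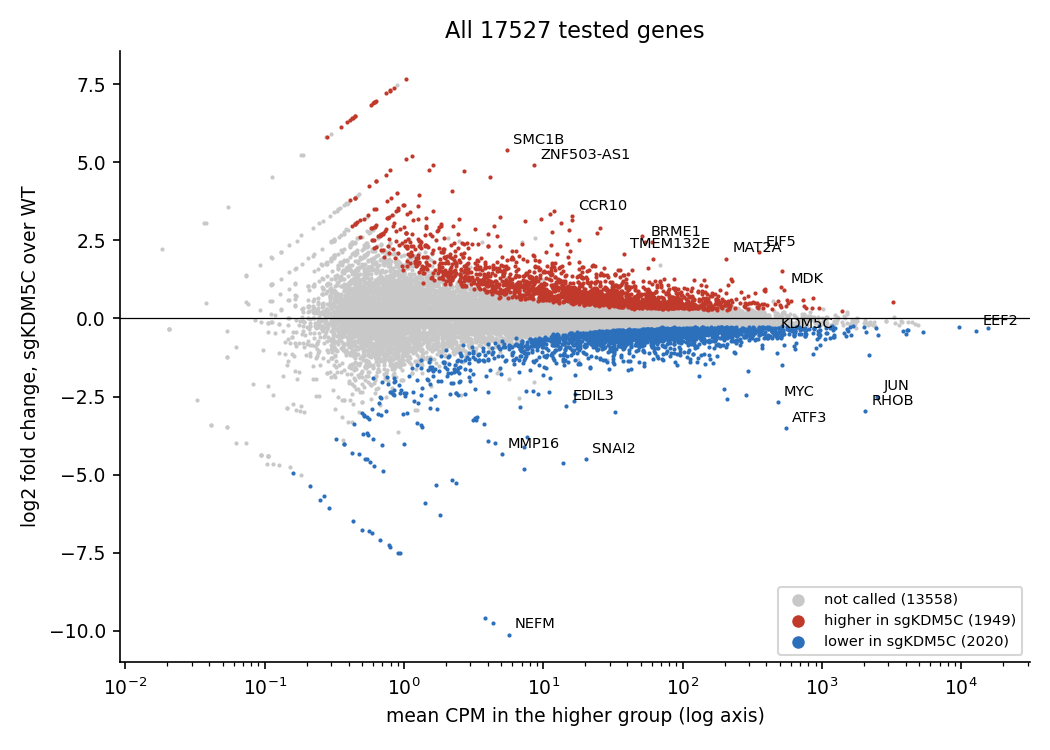
Each point is one of the 17527 tested genes, with the mean CPM of the higher group on a log x axis and the fitted log2 change of sgKDM5C over WT on the y axis; red genes were called higher, blue genes lower and grey genes were not called. SMC1B, ZNF503-AS1 and CCR10 stand highest among the labelled genes, SNAI2, MMP16 and ATF3 low, and NEFM lowest, where its fitted value depends on the prior count because both sgKDM5C libraries had 0 counts.

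Several genes of the meiotic programme rose. A list of 36 meiotic genes and genes repressed by PRC1.6 had 15 members with enough counts to test, of which 7 rose, 0 fell and 8 did not pass. The other 21 had at most 18 counts over either group, and 8 of them had 0 counts in all 4 libraries. A gene near 0 in WT cells could enter the test only through a group in which it was expressed, so this count gives no evidence of direction by itself. The start-site regions of 3 genes that rose are shown because an E2F motif (GCGGGAA on either strand, the kind of site that E2F factors bind) lies in each. The regions come from RefSeq and hold 250 bases before to 50 after the start, read along the gene's strand in GRCh38.p14, with the motif in capitals. SMC1B is at chr22:45413550-45413849 on the minus strand, SYCE2 at chr19:12919244-12919543 on the minus strand and BRME1 at chr19:13906068-13906367 on the minus strand.
SMC1B: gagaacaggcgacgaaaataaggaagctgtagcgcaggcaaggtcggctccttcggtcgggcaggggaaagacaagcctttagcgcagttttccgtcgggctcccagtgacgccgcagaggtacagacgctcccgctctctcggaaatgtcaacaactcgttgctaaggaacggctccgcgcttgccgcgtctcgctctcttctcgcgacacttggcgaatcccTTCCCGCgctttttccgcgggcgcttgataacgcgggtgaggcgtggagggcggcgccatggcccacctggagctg
SYCE2: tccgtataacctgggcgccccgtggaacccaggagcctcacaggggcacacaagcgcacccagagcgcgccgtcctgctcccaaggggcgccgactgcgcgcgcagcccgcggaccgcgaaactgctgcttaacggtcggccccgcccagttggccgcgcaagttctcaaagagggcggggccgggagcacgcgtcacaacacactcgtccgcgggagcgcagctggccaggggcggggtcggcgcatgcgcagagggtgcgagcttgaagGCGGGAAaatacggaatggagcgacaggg
BRME1: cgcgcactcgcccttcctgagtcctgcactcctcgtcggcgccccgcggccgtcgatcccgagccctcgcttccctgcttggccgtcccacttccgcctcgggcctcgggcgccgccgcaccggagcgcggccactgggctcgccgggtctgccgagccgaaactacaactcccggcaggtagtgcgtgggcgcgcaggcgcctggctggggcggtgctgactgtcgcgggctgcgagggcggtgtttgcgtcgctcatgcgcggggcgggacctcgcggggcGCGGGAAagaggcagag

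The motif lies before the start site in SMC1B and after it in SYCE2 and BRME1. RIBC2 is transcribed away from SMC1B on the plus strand, and its region (chr22:45413443-45413742) shares 193 bases with the one shown, including the motif. Among listed genes with a region in the table, 4 of the 6 that rose (SMC1B, RIBC2, SYCE2 and TUBA3D) held the motif, and SMC1B and RIBC2 account for a single site. Of the 6 that were tested and not called, 1 held it (SYCP2) when the first listed start site of each gene was read, and 3 held it (also STAG3 and TAF7L) when every listed start site was read. Of all 31 listed genes with a region, tested or not, 11 held it at the first start site. The motif was thus common in the list beyond the genes that rose, and these counts do not tie it to the rise. Of all 10991 tested protein-coding genes with a region, 10.2% held it at the first start site and 12.7% at any. Among those at least 2-fold higher in sgKDM5C these shares were 10.5% and 13.7%, and among those at least 2-fold lower 8.5% and 11%. Over all genes that rose at least 2-fold, the motif was thus about as common as in the background. An E-box (CACGTG) was in 0 of the 6 that rose, against 9.9% of tested genes. The same 0 of 6 held for a cAMP response element (TGACGTC, 5.49%), a TATA box (TATAAA, 5.45%) and an AP-1 site (TGAGTCA, 2.81%). With 6 genes, a count of 0 is uninformative at these shares. A GC box (GGGCGG) was in 5 of the 6, against 70.6% of tested genes, and a CCAAT box in 3, against 36.4%. A match of letters does not show that a factor binds there.

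SMC1B, the meiosis-specific cohesin subunit, read 4.15 and 6.77 CPM in sgKDM5C cells, against 0.124 and 0.13 CPM in WT cells. Only 5 counts stood behind the WT value, and the sgKDM6A and sgKMT2B libraries lay between 0.118 and 0.715 CPM, so sgKDM5C was far above all 6 other libraries (5.38, SE 0.61, adjusted p = 0.000118 against WT; 4.39, SE 0.41, adjusted p = 6.85e-06 against the other knockouts). Its divergent neighbour RIBC2, a cilium and flagellum protein gene, read 13.9 and 12.7 CPM against 5.25 and 4.29 CPM in WT cells (1.47, SE 0.23, adjusted p = 0.000784). SYCE2, which encodes a protein of the synaptonemal complex central element, read 7.36 and 6.09 CPM against 1.94 and 1.36 CPM in WT cells (2.00, SE 0.30, adjusted p = 0.000696). BRME1, a partner of the meiotic BRCA2 complex in mouse and human, was not on the list and came from the rule for the largest changes. It read 56.6 and 50.2 CPM in sgKDM5C cells, against 11.6 to 17.6 CPM in the other knockouts and 11 and 8.58 CPM in WT cells (2.44, SE 0.20, adjusted p = 1.34e-05). All of these were also higher in sgKDM5C than in the other knockouts (RIBC2 1.75, SYCE2 1.53 and BRME1 1.87 on the log2 scale, largest adjusted p 0.000457 by edgeR).

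Other germline genes gave results that were less stable or were shared with another knockout. HSPA2, a testis-enriched heat shock protein, rose to 17.2 and 12.7 CPM in sgKDM5C cells, against 3.88 and 3.83 CPM in WT cells (1.95, SE 0.22, adjusted p = 0.000131), and sgKMT2B cells held 16.4 and 13.8 CPM. Against the mean of the other knockouts it did not pass (0.44, adjusted p = 0.0909). HSF2BP, the partner of BRME1 in the BRCA2 complex, was higher (1.68, SE 0.41, adjusted p = 0.0109) but not without WT replicate 2 (1.37, adjusted p = 0.071). MAJIN, which tethers telomeres to the nuclear envelope in meiosis, read 2.59 and 1.74 CPM against 0.537 and 0.26 CPM in WT cells (2.37, SE 0.55, adjusted p = 0.00853), with at most 0.201 CPM in the other knockouts. MAJIN did not pass without sgKDM5C replicate 1 (2.06, adjusted p = 0.1005) or WT replicate 2 (1.99, adjusted p = 0.062), and its change was 3.03 without WT replicate 1. The testis tubulin gene TUBA3D has near-identical copies and depended on the choice of WT library: it changed by 2.54 (adjusted p = 0.0147), by 1.46 without WT replicate 1 (adjusted p = 0.098) and by 4.77 without WT replicate 2 (adjusted p = 0.00363). SAGE1, a cancer-testis antigen gene on the X chromosome, went the other way. It had 0 counts in both sgKDM5C libraries, against 173 counts over both WT libraries, at least 78.5-fold lower, where the bound takes 3 counts over the group as the floor. SAGE1 was also at 0 in both sgKDM6A libraries and at 4.70 and 5.36 CPM in sgKMT2B. Its neighbour CT45A10, 1 of several near-identical copies and therefore uncertain, had 0 counts in sgKDM5C and 171 in WT.

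A set of genes outside the germline was high in sgKDM5C and low in the other 6 libraries. CCR10, a chemokine receptor of skin-homing lymphocytes, read 16.2 and 16.1 CPM in sgKDM5C cells, against 0.674 to 2.25 CPM in the other knockouts and 1.40 and 2.01 CPM in WT cells. It rose by 3.27 against WT (SE 0.28, adjusted p = 1.49e-05) and by 3.60 against the other knockouts (SE 0.21, adjusted p = 1.11e-07). IKZF3, the lymphoid transcription factor Aiolos, read 19 and 17.3 CPM, against 2.43 to 2.81 CPM in the other knockouts and 3.06 and 3.31 CPM in WT (2.52, SE 0.20, adjusted p = 1.33e-05 against WT). The complement gene C5 read 13.2 and 13.8 CPM, against 1.18 to 2.38 CPM in the other knockouts and 0.909 and 2.53 CPM in WT (3.05, SE 0.40, adjusted p = 0.000267). Its change against WT was 2.41 without WT replicate 1 and 3.87 without WT replicate 2, with adjusted p under 0.05 in both.

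Further genes high in sgKDM5C ranged widely in level. TMEM132E, a membrane protein gene expressed in the inner ear, read 35.1 and 40.8 CPM in sgKDM5C cells and 9.79 and 8.45 CPM in WT cells (2.05, SE 0.16, adjusted p = 9.39e-06). MDK, which encodes the growth factor midkine, was among the 5 called protein-coding genes with the largest gain in CPM: 534 and 540 CPM in sgKDM5C cells, 152 to 308 CPM in the other knockouts and 292 and 275 CPM in WT cells (0.92, SE 0.08, adjusted p = 2.7e-05). WWC3, a regulator of Hippo signalling on the X chromosome, read 11.1 and 11.4 CPM in sgKDM5C cells, 3.69 to 7.67 CPM in the other knockouts and 0.991 and 1.23 CPM in WT cells. WWC3 thus rose against WT by 3.35 (SE 0.24, adjusted p = 4.9e-06) and against the other knockouts by 1.11 (SE 0.16, adjusted p = 0.000342). CUTA met the same rule but rested on sgKDM5C replicate 1, at 20.6 CPM in that library and 2.12 CPM in replicate 2, against 2.60 and 1.75 CPM in WT; without that library its change was -0.06 (adjusted p = 0.948), and it did not pass without either WT library (adjusted p = 0.082 and 0.143), although it rose by 3.20 without sgKDM5C replicate 2.

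**Figure D2:**
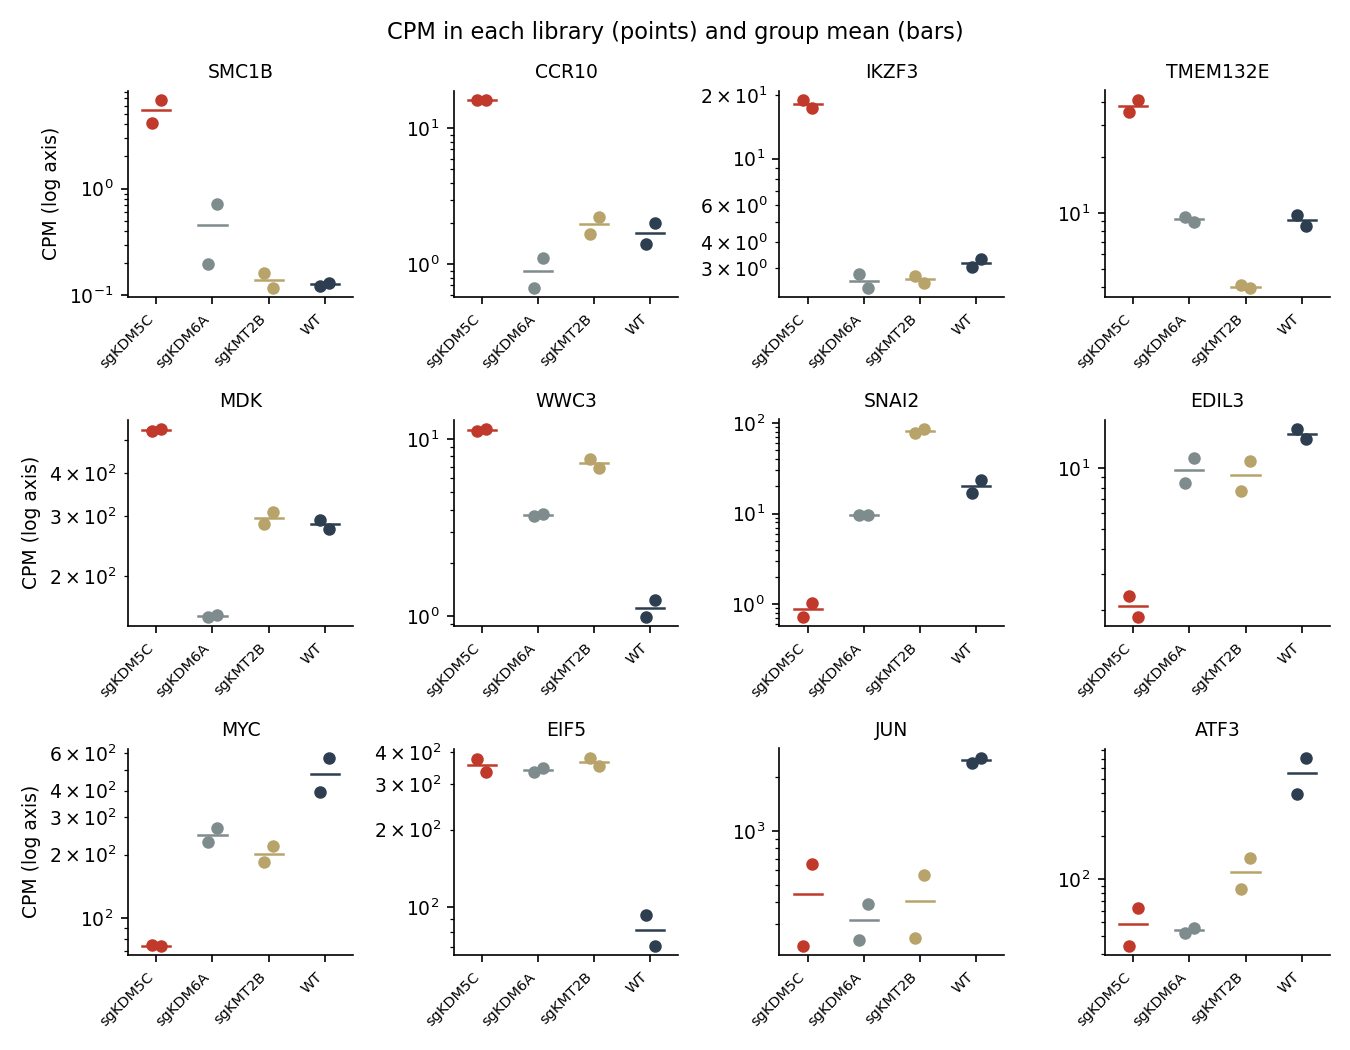
CPM on log axes for 12 genes, with 1 point for each library and a bar for the group mean, the knockouts to the left and WT at the right of each panel. SMC1B, CCR10, IKZF3, TMEM132E and MDK are highest in both sgKDM5C libraries, SNAI2, EDIL3 and MYC lowest, and EIF5, JUN and ATF3 separate the 2 WT libraries from all 6 knockout libraries.

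Several long non-coding RNA genes shared that profile. ZNF503-AS1 read 8.74 and 8.44 CPM in sgKDM5C cells, against 0.248 and 0.325 CPM in WT cells (4.92, SE 0.41, adjusted p = 1.34e-05). FENDRR, a lung and heart developmental regulator, read 13.7 and 9.31 CPM, against 1.24 and 2.21 CPM in WT cells (2.78, SE 0.31, adjusted p = 0.000118). KHDC1-AS1 read 14.3 and 16.1 CPM, against 1.78 and 2.60 CPM in WT cells (2.82, SE 0.24, adjusted p = 1.6e-05). In the other knockouts these 3 stayed between 0.236 and 2.52 CPM, and each was higher in sgKDM5C than there (by 4.37, 2.87 and 2.78 on the log2 scale, largest adjusted p 2.88e-06 by edgeR). ENSG00000233223, an antisense gene on chromosome 17, rose to 52.8 and 49.4 CPM, against 8.92 and 7.34 CPM in WT cells. The labels do not state whether counting used strand, so reads of antisense genes and of the genes they overlap cannot be told apart. Of 262 tested LINC genes, 41 rose and 7 fell (median 0.32), and the number that rose was 24 without sgKDM5C replicate 1 and 25 without WT replicate 1, and the number that fell was 1 to 4 with any 1 library left out. Most of the 2275 LINC genes had too few counts to test, and a gene near 0 in WT could enter only through a group that expressed it. The LINC counts therefore give no evidence of direction by themselves. Among all tested genes at 1 to under 5 CPM, 13.3% rose and 5.36% fell. LINC02593 rose by 1.40 (SE 0.14, 33.5 and 32.3 CPM against 13.2 and 11.7 CPM in WT), LINC00963 by 1.13 (SE 0.13) and LINC01521 by 1.62 (SE 0.21), and all 3 also passed against the other knockouts.

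SNAI2, the transcription factor Slug of neural crest and mesenchymal cells, had the largest fall of the called genes ranked at a mean of 20 CPM or more in the higher group. That ranking left out pseudogenes, LINC genes, clone-named genes and genes whose sgKDM5C and WT libraries overlapped. SNAI2 read 0.728 and 1.02 CPM in sgKDM5C cells, 9.55 and 9.58 CPM in sgKDM6A cells, 78.3 and 85.8 CPM in sgKMT2B cells and 17 and 23.3 CPM in WT cells. The sgKDM5C libraries were thus below all others (-4.51, SE 0.22, adjusted p = 3.07e-07 against WT; -5.00, SE 0.21, adjusted p = 6.27e-09 against the other knockouts). EDIL3, an integrin-binding matrix protein, read 2.33 and 1.85 CPM in sgKDM5C cells, 7.71 to 11.1 CPM in the other knockouts and 15.5 and 13.8 CPM in WT cells (-2.81, SE 0.24, adjusted p = 1.6e-05 against WT). MMP16, a membrane-bound metalloproteinase, read 0.219 and 0.265 CPM against 4.79 and 5.26 CPM in WT cells (-4.35, SE 0.38, adjusted p = 1.74e-05), while sgKDM6A cells held 7.10 and 10.4 CPM and sgKMT2B cells 0.0402 and 0.118 CPM. GABRD, a GABA receptor subunit gene, fell by 2.34 (SE 0.26) and SLITRK5, a synaptic adhesion gene, by 1.39 (SE 0.16) against WT. SLITRK5 read 5.10 and 6.43 CPM in sgKDM5C cells, 32.2 to 70.5 CPM in the other knockouts and 14.3 and 16 CPM in WT cells, so the fall was larger against the other knockouts (-3.08, SE 0.15).

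MYC, LRATD2 and TRIB1 on the long arm of chromosome 8 fell, while most genes of the region were not called. Of 27 genes with at least 5 CPM from 120 to 130 Mb, 6 fell, 2 rose and 19 were not called (median -0.04). MYC (127735434 to 127741434) read 74.8 and 74.4 CPM in sgKDM5C cells, 184 to 268 CPM in the other knockouts and 391.7 and 570 CPM in WT cells (-2.69, SE 0.16, adjusted p = 5.86e-07 against WT; -1.59, SE 0.14, adjusted p = 4.14e-06 against the other knockouts). LRATD2, its neighbour among protein-coding genes at 1 CPM or more, read 1.13 and 0.757 CPM against 5.78 and 7.86 CPM in WT cells (-2.84, SE 0.37), and TRIB1, a pseudokinase gene beyond it, 49.2 and 48.2 CPM against 87.5 and 117 CPM in WT cells (-1.06, SE 0.14). TRIB1 did not differ detectably from the other knockouts (-0.01, SE 0.12, adjusted p = 0.954). A rule chosen after the values were seen, 3 or more neighbouring protein-coding genes of that level with calls in 1 direction of at least 0.8 on the log2 scale, found 7 such runs. The others that fell were RHOB, HS1BP3 and GDF7 on chromosome 2 and CLDN1, IL1RAP and OSTN on chromosome 3, where CLDN1 did not pass without sgKDM5C replicate 2 (-1.37, adjusted p = 0.0595) or WT replicate 2 (-1.34, adjusted p = 0.059). One run that rose held PRTFDC1, THNSL1 and GPR158 on chromosome 10. PRTFDC1, a relative of the purine salvage enzyme HPRT, read 39.6 and 38.9 CPM in sgKDM5C cells, 9.43 to 13.8 CPM in the other knockouts and 15.3 and 17.2 CPM in WT cells (1.28, SE 0.14, adjusted p = 0.000115). GPR158, an orphan receptor gene, had 56 counts in sgKDM5C and 0 in WT, at least 13.7-fold higher. The remaining 3 runs were zinc finger genes of chromosome 19.

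The widest block of change was the first 80 Mb of chromosome 2. Its 293 genes with at least 5 CPM in the higher group gave 150 that fell and 5 that rose in sgKDM5C against WT (51.2% and 1.71%), and 255 of the 293 had a log2 change below 0. The median change was -0.42, with quartiles of -0.61 and -0.17, a median ratio to WT of 0.749. On the rest of chromosome 2, 48 of 500 genes fell and 74 rose, with a median of 0.03, and on all other chromosomes 1630 of 10780 fell and 1433 rose, with a median of -0.01. In windows of 10 Mb with 15 or more such genes, the 8 windows of this block had medians of -0.49 to -0.32 and were the 8 lowest of 256 over the genome. The next lowest, on chromosome 15, was at -0.23, and the 16 windows further along chromosome 2 lay between -0.11 and 0.16.

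Both sgKDM5C libraries were low over this block, and the sgKDM6A and sgKMT2B libraries were not. The median difference from the WT mean over its 293 genes was -0.41 in each sgKDM5C library. It lay between -0.01 and 0.03 in the 4 sgKDM6A and sgKMT2B libraries, on the log2 scale. Both WT libraries were at 0.00, but their values are equal and opposite by construction, being measured from their own mean. The block was chosen for its low sgKDM5C values, so the sgKDM5C medians restate that choice. The comparison with the mean of the other knockouts sets no WT level against sgKDM5C, but WT libraries enter its scaling and its estimate of the spread. It uses the same sgKDM5C libraries in which the block was found, and it called 20.3% of all tested genes. There, 176 of the 293 were lower in sgKDM5C and 9 higher (60.1% lower, where 8.65% of all tested genes were lower), with a median of -0.41. In 159 of the 293 genes (54.3%), both sgKDM5C libraries were below all 6 other libraries, as in 9.90% of the 11280 other genes of that level. The number that fell against WT was 101 to 135 when any 1 of the 4 libraries was left out. The boundaries of the block were chosen after the windows were seen. DNA copy number was not measured, and its part in these values was not tested.

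**Figure D3:**
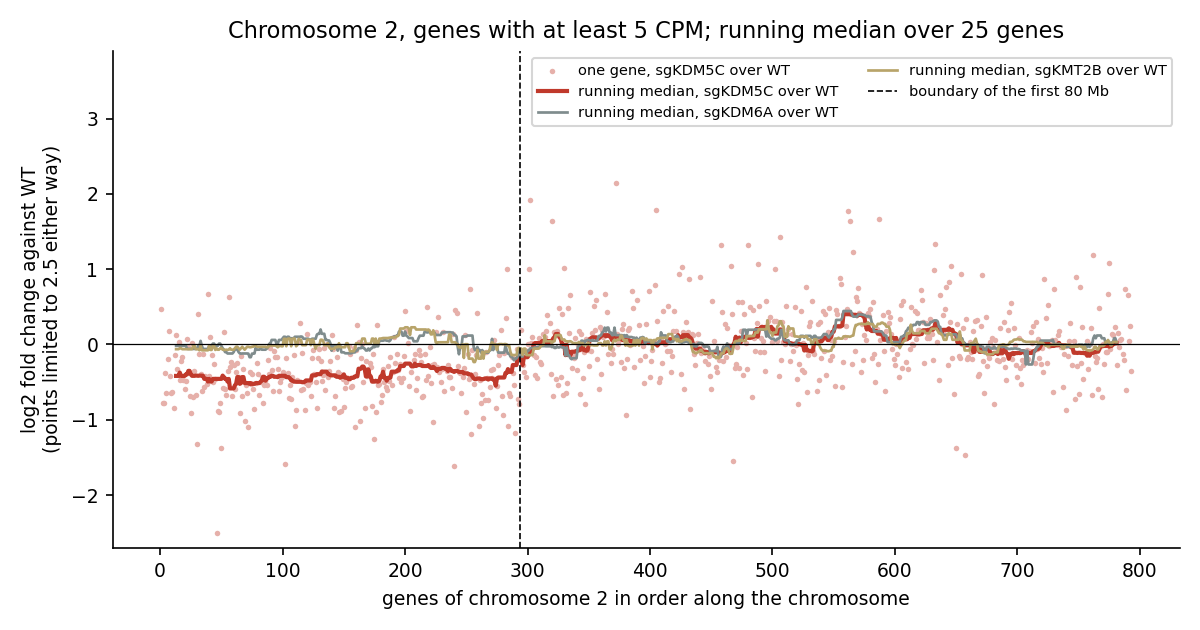
Genes of chromosome 2 with at least 5 CPM, in their order along the chromosome, with the log2 change against WT on the y axis; pale points are single genes in sgKDM5C and lines are running medians over 25 genes in the 3 knockouts. Left of the dashed boundary the sgKDM5C line runs between -0.58 and -0.14, the sgKDM6A line between -0.21 and 0.20 and the sgKMT2B line between -0.23 and 0.23; to its right the lines range from -0.27 to 0.40, from -0.27 to 0.44 and from -0.18 to 0.32 in the same 3 knockouts.

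Genes of the block span several functions. HK2, SELENOI and CCT4 had its smallest p-values, while RPS7, CAD and RRM2 are further examples, and unnamed genes such as KLHL29 had smaller p-values than these. HK2, which encodes hexokinase 2 of glycolysis (74833981 to 74893359), read 43.7 and 41.4 CPM in sgKDM5C cells, 74.3 to 77.7 CPM in the other knockouts and 97.7 and 95.1 CPM in WT cells (-1.18, SE 0.10, adjusted p = 1.34e-05). SELENOI, an enzyme of phospholipid synthesis, read 35.3 and 35.9 CPM, against 84.9 to 94.5 CPM in the other knockouts and 78.4 and 73.4 CPM in WT cells (-1.09, SE 0.10, adjusted p = 3.08e-05). CCT4, a subunit of the cytosolic chaperonin, read 352 and 331 CPM, against 455 to 605 CPM in the other knockouts and 614 and 643 CPM in WT cells (-0.88, SE 0.08, adjusted p = 3.08e-05). The ribosomal protein gene RPS7 fell by 0.63 (SE 0.08), the pyrimidine synthesis gene CAD by 0.77 (SE 0.11) and the ribonucleotide reductase gene RRM2 by 0.68 (SE 0.09). These 6 genes were also lower than in the other knockouts, by 0.38 (RRM2) to 1.34 (SELENOI) on the log2 scale. The 5 exceptions that rose were GEN1, TP53I3, SLC1A4, ZNF638 and LBX2-AS1. Only ZNF638 passed whichever library was left out, with 58.9 and 61.7 CPM in sgKDM5C, 63.2 to 79.7 CPM in the other knockouts and 42.9 and 29.1 CPM in WT. The run around RHOB lies in the block, but RHOB itself was low in all 3 knockouts. On chromosome 17 from 10 to 20 Mb, 17 of 60 genes fell and 5 rose in sgKDM5C (median -0.23), but there the medians against the same WT libraries were -0.31 in sgKDM6A and -0.08 in sgKMT2B.

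Zinc finger genes named ZNF, most of which encode KRAB repressors of transposable elements and other genes, leaned upward. Of 438 tested, 111 rose and 26 fell (25.3% and 5.94%), with a median of 0.30. ZNF genes are expressed at modest levels, so they were set beside other protein-coding genes of the same mean CPM over the 4 groups. At 5 to under 20 CPM, 31.1% of 180 ZNF genes and 15.6% of 2642 others rose, and at 1 to under 5 CPM, 28% of 100 and 13.2% of 1551. Chromosome 19, where many ZNF genes lie in clusters, gave 51 of 199 that rose, and the other chromosomes 60 of 239. The number that rose was 47 without sgKDM5C replicate 1 and 63 without WT replicate 2, and the number that fell was 14 without sgKDM5C replicate 1. ZNF783 on chromosome 7 rose, with 60.3 and 52.4 CPM in sgKDM5C cells, 22.4 to 28.9 CPM in the other knockouts and 19.5 and 17.2 CPM in WT cells (1.61, SE 0.15, adjusted p = 3.36e-05). ZNF780B and ZNF658 rose by 1.95 (SE 0.25) and 1.90 (SE 0.25) against WT, whereas ZNF598, a ubiquitin ligase of ribosome quality control, fell by 0.86 (SE 0.11). Against the mean of the other knockouts, 24 of the 438 were higher and 27 lower (5.48% and 6.16%), with a median of -0.10. Over all tested genes that comparison called 11.7% higher and 8.65% lower, so ZNF genes were called less than the background in both directions there.

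**Figure D4:**
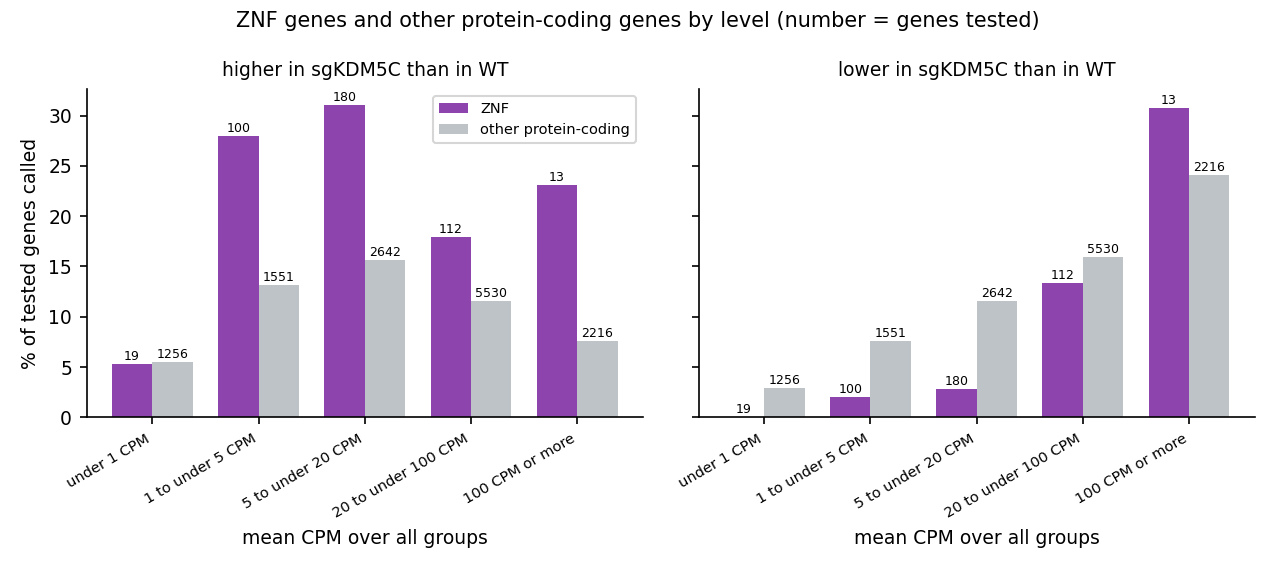
Percent of tested genes called higher (left panel) or lower (right panel) in sgKDM5C than in WT, by class of mean CPM, for ZNF genes in purple and other protein-coding genes in grey, with the number tested above each bar. ZNF genes rose more often in the classes of 1 to under 5, 5 to under 20 and 20 to under 100 CPM, at 28%, 31.1% and 17.9% against 13.2%, 15.6% and 11.6%; the class of 100 CPM or more holds only 13 ZNF genes.

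Many of the largest changes against WT did not separate sgKDM5C from the other knockouts. EIF5, a translation initiation factor, read 377 and 335 CPM in sgKDM5C cells, 334 to 380 CPM in the other knockouts and 92.9 and 70.8 CPM in WT cells. It rose by 2.12 against WT (SE 0.12, adjusted p = 5.21e-07) and differed by 0.01 from the other knockouts (SE 0.10, adjusted p = 0.965). MAT2A, which makes S-adenosylmethionine, read 271 and 142 CPM in sgKDM5C cells, 150 to 307 CPM in the other knockouts and 53.4 and 55.8 CPM in WT cells (1.92, SE 0.32, adjusted p = 0.00123). The stress-response gene SESN2 rose by 1.28 (SE 0.18) and CHAC1, which degrades glutathione, by 2.88 (SE 0.43). NCOA5 rose by 2.44 (SE 0.36), and by 1.84 without sgKDM5C replicate 1. None of these passed against the other knockouts, where their changes were between -0.47 and 0.05. All 3 knockouts are compared with the same pair of WT libraries, so a value peculiar to those libraries enters each comparison.

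The same held for falls in early response genes. JUN read 227 and 654 CPM in sgKDM5C cells, 243 to 564 CPM in the other knockouts and 2418 and 2568 CPM in WT cells (-2.501, SE 0.41, adjusted p = 0.00118), and its change was -3.47 without sgKDM5C replicate 2. RHOB, a stress-induced small GTPase gene, read 134 and 390 CPM in sgKDM5C cells, 99.3 to 481 CPM in the other knockouts and 1799 and 2311 CPM in WT cells (-2.97, SE 0.45, adjusted p = 0.000696), and -3.95 without sgKDM5C replicate 2. ATF3 and DUSP1 fell by 3.51 (SE 0.31) and 2.56 (SE 0.23). Against the other knockouts none of the 4 passed, with changes of -0.53 to 0.30. The neuropeptide receptor gene ADCYAP1R1 and the splicing regulator NOVA2 fell by 1.605 and 1.66 against WT, and their levels in the other knockouts lay on both sides of sgKDM5C. SPARC, a matrix glycoprotein gene, read 4.08 and 4.09 CPM in sgKDM5C cells, 0.0793 and 0.0357 CPM in sgKDM6A cells, 91.5 and 102 CPM in sgKMT2B cells and 28.3 and 37.2 CPM in WT cells, an order in which no groups overlap.

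Among highly expressed genes, more translation factors fell than rose, as did all genes at 100 CPM or more (24.2% lower and 7.67% higher). Of 47 tested, 16 were lower and 3 higher (median -0.16), with 10 lower without sgKDM5C replicate 1 or without sgKDM5C replicate 2 and 6 higher without WT replicate 1. At 100 CPM or more, 13 of 35 were lower (37.1%). The elongation factor gene EEF2 lost the most CPM of any called protein-coding gene: 9521 and 9825 CPM in sgKDM5C cells, against 12188 and 13563 CPM in WT cells (-0.41, SE 0.07, adjusted p = 0.00162). PABPC1, the poly(A)-binding protein gene, fell by 0.54 (SE 0.08) and EIF3B by 0.51 (SE 0.08), and these 3 were also lower than in the other knockouts. Genes of serine, one-carbon and nucleotide synthesis gave 13 lower and 4 higher of 40 (median -0.15), with 1 higher without sgKDM5C replicate 1; 3 of the 13 (MTHFD2, CAD and RRM2) lie in the chromosome 2 block, and 12 of the 13 are among the list's 23 members at 100 CPM or more (52.2%). Outside the block, AHCY, which hydrolyses S-adenosylhomocysteine, read 635 and 613 CPM in sgKDM5C cells and 969 and 923 CPM in WT cells (-0.60, SE 0.08, adjusted p = 0.000238), and the phosphoribosyl pyrophosphate synthetase gene PRPS1 fell by 0.57 (SE 0.08). Mitochondrial ribosomal protein genes gave 16 lower and 5 higher of 74, with 8 lower without sgKDM5C replicate 2, 1 higher without sgKDM5C replicate 1 and 2 higher without WT replicate 2. Most were at 20 to under 100 CPM, where 9 of 51 were lower (17.6%), near the 15.8% of all genes at that level, and at 100 CPM or more 7 of 16 were lower. Nuclear OXPHOS subunit genes gave 6 lower and 2 higher of 76, fewer calls than the background share, with 12 higher without WT replicate 1, 0 higher without sgKDM5C replicate 1 and 2 lower without sgKDM5C replicate 2. The actin gene ACTB had the largest gain in CPM of any called protein-coding gene, with 3491 and 3034 CPM in sgKDM5C cells against 2513 and 2061 CPM in WT cells (0.51, SE 0.10, adjusted p = 0.00263).

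Lysosome, splicing and snoRNA host genes also held genes that changed against WT. Of 48 autophagy and lysosome genes, 15 fell and 3 rose; without sgKDM5C replicate 1 the number that fell was 6, without sgKDM5C replicate 2 it was 7 and without WT replicate 2 it was 9, and 0 rose without sgKDM5C replicate 1. At 100 CPM or more, 8 of 15 autophagy and lysosome genes fell (53.3%, against 24.2% of all genes at that level) and 0 rose. At 20 to under 100 CPM, 7 of 27 fell (25.9%, against 15.8%) and 3 rose (11.1%, against 11.9%). GABARAPL1, an autophagosome protein gene, read 26.3 and 30.4 CPM in sgKDM5C cells, 26.7 to 32.5 CPM in the other knockouts and 61.6 and 81.9 CPM in WT cells (-1.34, SE 0.15, adjusted p = 0.000122). The lysosomal hydrolase genes GLA and GAA fell by 0.94 (SE 0.10) and 0.74 (SE 0.09). Splicing factors gave 12 higher and 12 lower of 65, with 6 higher without sgKDM5C replicate 1 and 7 higher without WT replicate 2, and 8 lower without sgKDM5C replicate 1. At 100 CPM or more, 10 of 43 splicing genes were lower (23.3%), near the 24.2% of all genes at that level, and 7 were higher (16.3%, against 7.67%). At 20 to under 100 CPM, 2 of 18 were lower (11.1%, against 15.8%) and 4 higher (22.2%, against 11.9%). HNRNPM, SRSF1 and SRSF5 rose by 0.86, 1.23 and 0.69, and the splicing kinase gene CLK3 fell by 0.83. Small nucleolar RNA host genes gave 7 lower and 0 higher of 22 (4 lower without sgKDM5C replicate 1, and 2 higher without WT replicate 1). SNHG3, SNHG7, SNHG1 and SNHG29 fell by 1.15, 0.94, 1.18 and 0.63, and of these SNHG7 and SNHG1 were also lower than in the other knockouts (-0.68, adjusted p = 0.000153, and -0.52, adjusted p = 0.0116). RBM15, a component of the m6A writer complex, read 40.3 and 51.4 CPM in sgKDM5C cells and 106 and 121 CPM in WT cells (-1.31, SE 0.13, adjusted p = 4.29e-05).

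Guidance cues, receptors and other regulators gave smaller numbers. Of 60 semaphorin, plexin, ephrin and netrin genes, 14 fell and 4 rose; the number that fell was 6 without sgKDM5C replicate 1 and 9 without WT replicate 2, and 2 rose without sgKDM5C replicate 1 or 2 or WT replicate 1. NRP2, a semaphorin receptor gene, read 13.3 and 18.2 CPM in sgKDM5C cells and 36.9 and 44.7 CPM in WT cells (-1.37, SE 0.19, adjusted p = 0.000435). SEMA3E and EPHA3 fell by 1.83 (SE 0.28) and 1.18 (SE 0.19) against WT and by 2.00 and 2.57 against the other knockouts. In NF-kappaB and TNF signalling, 9 of 32 genes fell and 4 rose (5 fell without sgKDM5C replicate 1, 6 without sgKDM5C replicate 2 and 6 without WT replicate 2, while 2 rose without WT replicate 1). The TWEAK receptor gene TNFRSF12A fell by 1.51 (SE 0.15) and NFKB2 by 1.14 (SE 0.14), whereas the kinase gene RIPK1 rose by 1.40 (SE 0.18). The nuclear receptor gene NR1D1 of the circadian clock read 5.83 and 7.42 CPM in sgKDM5C cells, 12 to 13.9 CPM in the other knockouts and 17.7 and 18.3 CPM in WT cells (-1.44, SE 0.17, adjusted p = 0.000142). Chromatin remodellers gave 7 higher and 3 lower of 27, and 2 higher without sgKDM5C replicate 1 or 3 without WT replicate 2. SMARCA1, an ISWI remodeller gene on the X chromosome, rose by 0.69 (SE 0.11) against WT and by 1.14 (SE 0.09) against the other knockouts.

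**Figure D5:**
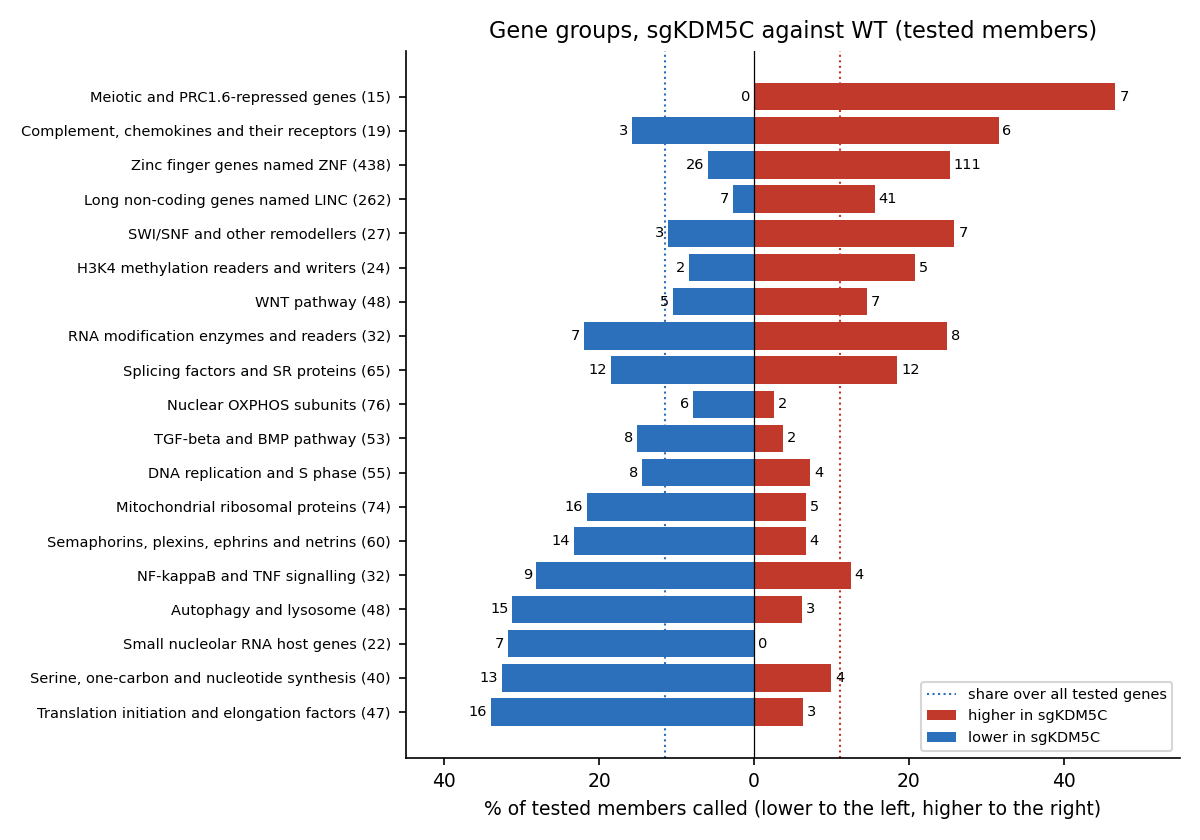
Percent of tested members of 19 gene groups that were called lower (blue, to the left) or higher (red, to the right) in sgKDM5C than in WT, with the number of genes beside each bar and the number tested in brackets; dotted lines mark the shares over all tested genes, 11.1% higher and 11.5% lower. The 19 groups are a selection from the lists tested. Among them the meiotic list is the furthest to the right with 7 of 15 higher, and translation factors the furthest to the left with 16 of 47 lower. A meiotic gene with almost no counts in WT could enter the test only through a group that expressed it. The meiotic share therefore gives no evidence of direction by itself.

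Neuronal genes, of which NEFL, INA and GRIN1 were chosen after their values were seen, did not move in 1 direction. NEFM had 0 counts in sgKDM5C and 223 in WT, at least 101-fold lower, and its neighbour on chromosome 8, NEFL, read 4.37 and 5.56 CPM against 12.8 and 15.3 CPM in WT cells (-1.50, SE 0.19, adjusted p = 0.000253). NEFM was also at 0 in both sgKDM6A libraries and at 0 and 0.0788 CPM in sgKMT2B. INA, the alpha-internexin gene, rose to 51.8 and 38.9 CPM in sgKDM5C cells, against 22.6 and 24.0 CPM in WT cells (0.96, SE 0.18, adjusted p = 0.00256). GRIN1, an NMDA receptor subunit gene, read 9.72 and 7.79 CPM, against 2.69 and 2.99 CPM in WT cells (1.63, SE 0.25, adjusted p = 0.000765). Summed over 26 neuron markers, the level was 624 and 536 CPM in sgKDM5C and 521 and 531 CPM in WT, but UCHL1 alone made up 78.1% of the list's counts in sgKDM5C and 73.2% in WT. Of 16 neuron markers tested, 2 rose and 4 fell (median -0.30), and 4 of the 26 had 0 counts in all 4 libraries. Glia markers summed to 273 and 248 CPM in sgKDM5C and 255 and 276 CPM in WT, with 2 of the 16 at 0. Blood markers summed to 13.3 and 13.6 CPM in sgKDM5C against 7.85 and 8.45 CPM in WT, with 7 of the 20 at 0 counts in all 4 libraries, and kidney markers to 314 and 320 CPM against 341 and 356 CPM in WT, with 8 of the 24 at 0. Fibroblast, muscle and endothelial markers summed to 48.9 and 52.0 CPM in sgKDM5C and 66.2 and 67.0 CPM in WT, with 3 of the 20 at 0. The part of these marker levels in the results was not tested.

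A few genes picked by their size of change are uncertain. YTHDC1, a reader of RNA methylation, read 13.6 and 5.75 CPM in sgKDM5C cells and 1.53 and 0.455 CPM in WT cells (3.18, SE 0.84, adjusted p = 0.0164); its change was 2.43 without sgKDM5C replicate 1 (adjusted p = 0.094), 2.65 without WT replicate 2 (adjusted p = 0.106) and 4.40 without WT replicate 1. RPS18 was counted at 0.51 and 0.605 CPM in sgKDM5C cells and 15 and 12.9 CPM in WT cells, a level far below that of the ribosomal protein gene RPS2 (7981 and 8065 CPM, and 9196 and 10087 CPM), and it has near-identical copies among which reads can be lost. EEF1A1 and RPS2 were among the 5 largest losses in CPM of called protein-coding genes, but EEF1A1 did not pass without sgKDM5C replicate 2 (-0.26). RPS2 did not pass without sgKDM5C replicate 1 (adjusted p = 0.116), sgKDM5C replicate 2 (0.071) or WT replicate 2 (0.074). In all, 27 called genes had 0 counts in both libraries of 1 group and at least 20 over the other, 11 of them at 0 in sgKDM5C and 16 at 0 in WT. Besides those already named, STXBP6, an exocytosis gene, had 36 counts in WT and 0 in sgKDM5C (at least 16.3-fold lower), while it read 0.512 to 2.22 CPM in the other knockouts.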

How the data were processed

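RNA-seq libraries from 4 groups of HEK293T cells, 2 each, were read from poly(A)-selected mRNA, per the labels' protocols. The authors deposited raw counts per gene; STAR and HTSeq 0.11.2 are named in the submitters' processing notes, while the annotation release and strand setting are not stated in the labels. Genes sharing reads with near-identical copies or antisense partners are therefore uncertain. All 60617 genes of the count table entered; 17527 passed edgeR's filter by group (edgeR 4.0.16, R 4.3.3). One quasi-likelihood model with TMM factors was fitted to all 8 libraries, with sgKDM5C compared with WT and with the mean of the other 2 knockouts, and p-values adjusted by Benjamini-Hochberg over all tested genes (threshold 0.05). Log2 changes are sgKDM5C over WT unless another partner is named. The named genes are those with the largest changes or differences between knockouts at 5 CPM or more, the leading called members of each list, genes at 0 in 1 group, and genes said to be chosen later. Members and lists were chosen with earlier results of these data known. Promoter regions are RefSeq's (GRCh38.p14). Gene coordinates come from a GRCh38 annotation matched by gene identifier. The method was tested on simulated data. Alternatives included DESeq2 1.42.0, other factors and filters, and leaving out each library; without 1 library of a group, its remaining library was assumed to vary like the other groups.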

Additional observations from a re-analysis of the deposited data

How the results depend on the processing

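Under RLE or upper-quartile factors, DESeq2, no filter on low counts, a minimum of 1 CPM, only the 4 WT and sgKDM5C libraries, 1 depth for all libraries or an offset for the median of each chromosome, the number of genes called against WT lay between 3271 and 4340, against 3969 as reported. The share of calls that were higher was 49.1% as reported and 43.8% to 55% under all alternatives. Leaving out 1 of the 4 libraries gave 1841 to 3877 called genes, of which 893 to 1918 were higher and 948 to 1959 lower. The same fits gave 632 to 1025 genes called at least 2-fold, 415 to 635 higher and 217 to 394 lower, and 1763 to 4243 genes that differed from the other knockouts. The change in KDM5C passed under every alternative run, at -0.55 to -0.47. Without sgKDM5C replicate 1 or 2, CUTA changed by -0.06288 to 3.199 against WT and by -0.1697 to 3.103 against the other knockouts, reversed without replicate 1, since its value rests on that library. Dropping the genes of chromosome 2 below 80 Mb, chosen after the data were seen, left 3805 calls against WT. Same-numbered libraries of sgKDM5C and WT did not deviate together (r = -0.01 across genes), which by itself does not show that the numbers carry no pairing. Same-numbered knockout libraries did deviate together (r = 0.279 for sgKDM5C with sgKDM6A, 0.158 for sgKDM5C with sgKMT2B and 0.136 for sgKDM6A with sgKMT2B), but each rests on 2 numbers, and the comparison with the other knockouts was fitted without a block. A fit with the replicate number as a block called 4645 genes against WT and 4206, in place of 3563, against the other knockouts. Among single named genes, 239 refitted values no longer passed and 21 newly passed, while 389 refitted list counts moved by more than 1.5 times and 1752 did not. With 2 libraries a group, small changes in genes of low count were not detectable at this depth.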
